A study of Mus musculus with 5 samples.

Results

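Axon guidance genes, namely the semaphorins, ephrins, netrins and Slits with their receptors, were examined in lungs of bleomycin-treated 129svJ mice. Members were taken by gene symbol alone from the array's annotation (semaphorins, plexins, neuropilins, ephrins, Eph receptors, Slits, Robos, netrins and Unc5), which gave 59 symbols on 65 of 17280 array features. Of these, 42 symbols had a feature read on 4 or all 5 arrays and entered the analysis, among 10081 genes and unnamed features in all. One of the 42, Unc50, shares only its first letters with the Unc5 netrin receptors and is no guidance gene. Without it there were 41.

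Each of the 5 arrays compared amplified lung RNA of 1 bleomycin-treated 129svJ mouse, an inbred strain, with a single pool of amplified control lung RNA of the same strain, so the 5 mice form 1 group and the pool is its only control. Bleomycin is a DNA-cleaving antibiotic used to injure the lung in mice. Genotype, sex, age, dose, route, time after treatment and the number of mice in the pool are not stated in these sources. Whole lung was used, so fewer cells of a type and less RNA per cell cannot be told apart.

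Values are log2 ratios, centred on each array's median. The sources do not say whether the mouse or the pool is the numerator, nor the log base, which was taken as 2, so each gene is described by its side of 0 and its size, and no direction of regulation is given. A gene passed the threshold when limma's moderated test of its mean ratio against 0, two-sided with Benjamini-Hochberg adjustment over all 10081, gave an adjusted p under 0.05. Variation among control mice does not enter that test. In a stricter setting, called the pool-variance test here, the pool was given the spread of 1 mouse.

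Guidance ligands steer cell movement by turning the actin cytoskeleton of the receiving cell. Semaphorins signal through plexins, some of them with neuropilins as co-receptors. Ephrins stay on the cell surface and signal both ways on contact with Eph kinases, Slits bind Robos, and netrins bind Dcc, neogenin and Unc5 receptors. Outside the nervous system these families pattern blood vessels, take part in branching of the developing lung and, for some semaphorins, act on immune cells.

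Most guidance genes differed little between the mice and the pool, and a few secreted ligands and 1 plexin stood far above 0. Of the 42 symbols, 8 passed below 0, 13 passed above 0 and 21 did not pass. Over all features 49.6% passed, 23.9% below 0 and 25.8% above 0, so the share of guidance symbols that passed, 50%, was near that of all features. Their median log2 ratio was 0.021, against −0.0066 over all features, and the median size of the ratio was 0.167, against 0.213. Only Ntn4, Sema3e and Plxnd1 passed with a difference of at least 2-fold, all above 0. Over all features, 5.59% passed at that size, 3.24% above 0 and 2.35% below 0.

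All measured arrays lay on 1 side of 0 for 25 of the 42 symbols. The share over all features was 57.3%. In the pool-variance test, Ntn4 and Sema3e passed, both above 0 (limma adjusted p = 0.0379 and 0.0205), and 7 symbols had an unadjusted p under 0.05. The Ntn4 call was lost without mouse 3, 4 or 5 (adjusted p from 0.0548 to 0.0676), and neither gene passed without moderated variances (adjusted p = 0.209 for Ntn4 and 0.151 for Sema3e). Of all features 5.09% passed there, 2.11% below 0 and 2.98% above 0. No symbol below 0 passed by limma in that setting, nor did any there reach an unadjusted p under 0.05. The lowest mean of any member was −0.31, a 1.24-fold difference.

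**Figure D1:**
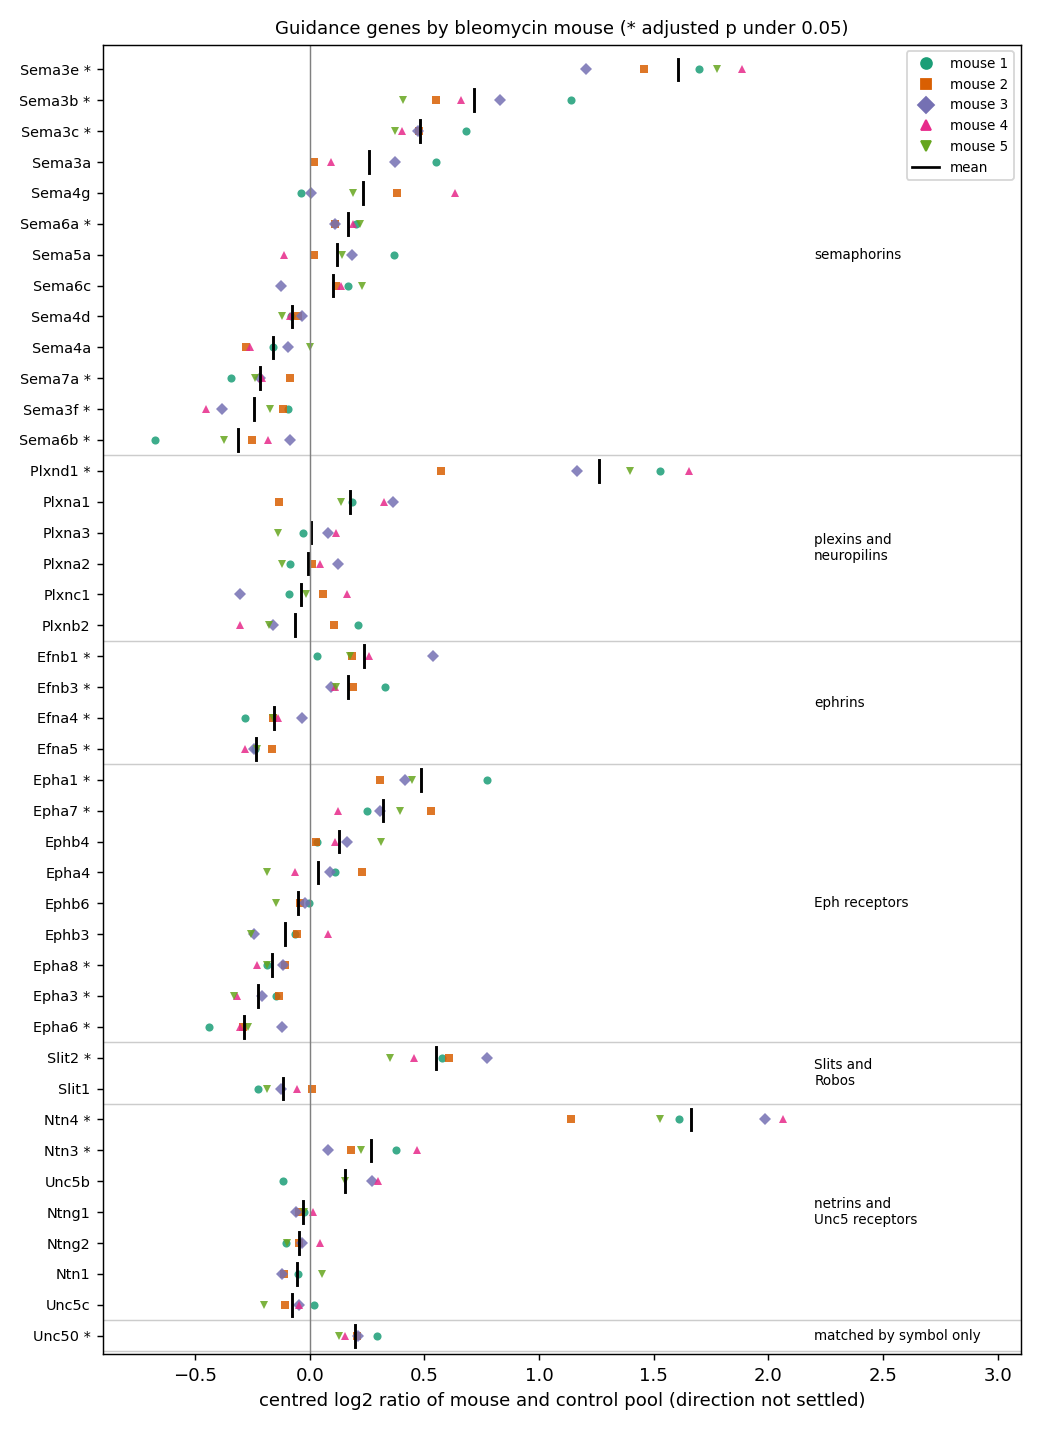
Centred log2 ratio (horizontal axis) of the 42 measured symbols, by family, with 1 point for each of the 5 mice, a black bar at the mean and an asterisk for an adjusted p under 0.05. Ntn4, Sema3e and Plxnd1 lie farthest from 0, with means of 1.66, 1.604 and 1.26, and the lowest mean belongs to Sema6b at −0.31.

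Among the secreted semaphorins, Sema3e stood apart from its relatives. Sema3e binds plexin D1 directly and repels growing blood vessels. Its log2 ratios in mice 1 to 5 were 1.699, 1.46, 1.205, 1.88 and 1.78. Every mouse lay more than 2-fold from 0. The mean of 1.604 ± 0.27 (SD, n = 5 mice) corresponds to a 3.04-fold difference (limma adjusted p = 5.68e-05), and 70 of the 10081 features had a higher mean. On every array Sema3e exceeded the 4 other measured class 3 semaphorins wherever they had a value (Sema3a had none in mouse 5), by 1.304 ± 0.34 (SD, n = 5) over their mean. This comparison was chosen after its values were seen and carries no test. In it, Sema3c entered as the average of 2 unlike features, described below. The higher of them, feature 15840, gave 1.36 in mouse 1 and 0.95 in mouse 3, beside 1.699 and 1.205 for Sema3e.

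Sema3b, a neuropilin-binding semaphorin known as a tumour suppressor, had log2 ratios of 1.14, 0.55, 0.83, 0.66 and 0.405 in mice 1 to 5. Mouse 1 was highest and mouse 5 lowest, and all lay above 0. Its mean was 0.72 ± 0.28 (SD, n = 5; limma adjusted p = 0.00153; a 1.64-fold difference), but it did not pass the pool-variance test (adjusted p = 0.168). Sema3a, the classical collapsing factor of growth cones, had 0.55, 0.018, 0.37 and 0.091 in mice 1 to 4 and no value in mouse 5. Mice 2 and 4 were close to 0, and the mean of 0.26 missed the threshold (adjusted p = 0.0802; 95% interval 0.0082 to 0.51). Sema3f, also a neuropilin ligand, lay on the other side of 0, with −0.093, −0.12, −0.38, −0.45 and −0.17. Mice 3 and 4 were lowest, and the mean of −0.24 ± 0.16 passed (adjusted p = 0.0253). Without mouse 3 or mouse 4 it did not (adjusted p = 0.0811 and 0.0721).

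Sema3a, Sema3c, Sema3d and Sema3e all lie on chromosome 5 in the RefSeq annotation of GRCm38.p6. Sema3a and Sema3d are direct neighbours among protein-coding genes, and 3 protein-coding genes separate Sema3a from Sema3e. Their log2 ratios were unlike, with 1.604 for Sema3e beside 0.26 for Sema3a, and Sema3d had no value on any array.

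Sema3c, a neuropilin ligand that helps shape the outflow tract of the heart, was measured by 2 features that gave different ratios. Feature 15840 gave 1.36, 0.92, 0.95, 0.835 and 0.73 in mice 1 to 5, and feature 2599 gave 0.007, 0.037, −0.011, −0.028 and 0.018. All mice were well above 0 by the first and within 0.04 of 0 by the second. Fitted separately among 10702 features, the first averaged 0.96 ± 0.24 (SD, n = 5; limma adjusted p = 0.000257) and the second 0.0046 ± 0.025 (adjusted p = 0.94). The average of both, 0.48 ± 0.12, passed the threshold (adjusted p = 0.000809) and therefore rests on 1 feature.

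The membrane-bound semaphorins that entered the analysis were close to 0, while Sema6d, read on 3 arrays and outside it, averaged 0.69. Of 8 measured genes of classes 4 to 7, 2 passed below 0, 1 above 0 and 5 did not pass, against 49.6% of all features that passed. Their means ran from −0.31 to 0.23. Sema6b, a transmembrane semaphorin that signals through A-type plexins, had −0.67, −0.25, −0.084, −0.18 and −0.375 in mice 1 to 5. Mouse 1 was far lower than mouse 3, and the mean was −0.31 ± 0.23 (SD, n = 5; limma adjusted p = 0.0231). The Sema6b call was lost without mouse 2 (adjusted p = 0.0533) or mouse 5 (adjusted p = 0.069). Sema7a, a lipid-anchored semaphorin that binds plexin C1 and beta 1 integrins, had −0.34, −0.086, −0.22, −0.21 and −0.24. All mice lay below 0, with a mean of −0.22 ± 0.091 (adjusted p = 0.0137). Sema6a, a ligand of plexins A2 and A4, averaged 0.17 ± 0.052 (adjusted p = 0.0243), with all mice between 0.11 and 0.22. Its call was lost without mouse 1, 4 or 5 (adjusted p from 0.0556 to 0.0728).

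Both Sema4a and Sema4d, semaphorins of immune cells, missed the threshold. Sema4a, which acts on T cells, averaged −0.16 ± 0.12 (SD, n = 5; limma adjusted p = 0.0602) and passed without mouse 5 (adjusted p = 0.0444), and Sema4d, the CD100 antigen that binds plexin B1 and CD72, averaged −0.075 ± 0.034 (adjusted p = 0.207). Sema4g varied most among the class 4 genes, with −0.038, 0.38, 0.006, 0.635 and 0.19 in mice 1 to 5. Mice 1 and 3 were at 0 and mouse 4 was highest, and the mean of 0.23 ± 0.28 did not pass (adjusted p = 0.0996). Sema5a and Sema6c, at means of 0.12 and 0.104, also missed the threshold.

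Plexin D1 was the only plexin symbol that passed over all 5 mice. Plxna1 passed without mouse 2 (mean 0.2525, limma adjusted p = 0.0282), and 1 of its 2 features passed on its own. Plxnd1 encodes the receptor of Sema3e, best known from endothelial cells. Its log2 ratios in mice 1 to 5 were 1.53, 0.57, 1.165, 1.65 and 1.396. Mouse 2 stood below the other mice, and all lay above 0. The mean was 1.26 ± 0.43 (SD, n = 5; a 2.4-fold difference; limma adjusted p = 0.000667), with 169 features of the series higher. In the pool-variance test Plxnd1 did not pass (adjusted p = 0.109), and without mouse 2 it did (adjusted p = 0.0305, mean 1.44).

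The other 5 plexins had means between −0.065 and 0.17, and the 95% interval of each lay within 1.5-fold of 0. Plxna1 enters here as the average of 2 unlike features, described with Epha4. Plxnd1 exceeded all of them on every array where they had a value (Plxna3 had none in mouse 2), by 1.25 ± 0.42 (SD, n = 5) over their mean, a comparison chosen after its values were seen. Plxnb2, a receptor of class 4 semaphorins, had 0.21, 0.106, −0.16, −0.31 and −0.18 in mice 1 to 5. Mice 1 and 2 lay above 0 and the rest below, for a mean of −0.065 ± 0.22 (limma adjusted p = 0.55). Plxnc1, the plexin that binds Sema7a, averaged −0.038 ± 0.18 (adjusted p = 0.694), and Plxna2 and Plxna3, receptors used by class 3 and class 6 semaphorins, averaged −0.0068 and 0.00775. Nrp1, a neuropilin and co-receptor of class 3 semaphorins and VEGF, had a value of −0.345 in mouse 2 alone and was not tested.

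**Figure D2:**
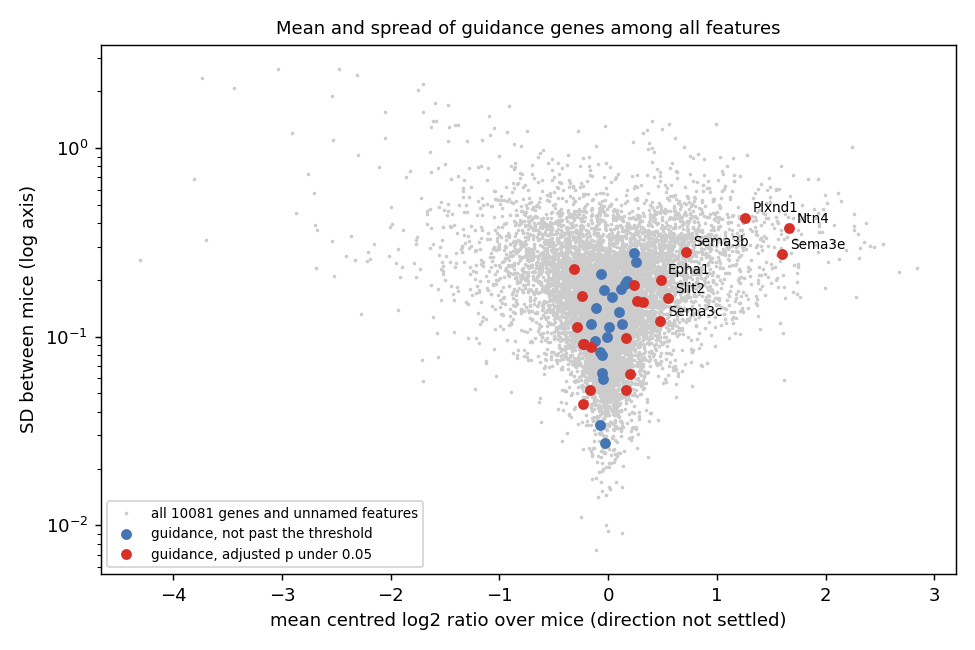
Mean centred log2 ratio over the mice (horizontal axis) against the SD between mice (vertical log axis) for all 10081 genes and unnamed features in grey, guidance symbols past the threshold in red and the others in blue. Ntn4, Sema3e and Plxnd1 combine means over 1 with SDs of 0.375, 0.27 and 0.43, whereas most guidance symbols lie near 0. The median SD of the guidance symbols is 0.128.

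Among netrins and their receptors, Ntn4 was far above 0 and the rest were near it. Ntn4 encodes a laminin-related netrin of basement membranes that binds laminin chains. Its log2 ratios were 1.61, 1.14, 1.985, 2.06 and 1.53 in mice 1 to 5. Mice 3 and 4 were highest and mouse 2 lowest, and all mice were more than 2-fold from 0. The mean of 1.66 ± 0.37 (SD, n = 5) is a 3.17-fold difference (limma adjusted p = 0.000131), the largest of any guidance gene, and 60 of 10081 features had a higher mean.

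Ntn3, a netrin that binds Dcc and Unc5 receptors, had 0.38, 0.18, 0.082, 0.47 and 0.22 in mice 1 to 5. All mice lay above 0, and the mean of 0.27 ± 0.15 passed (SD, n = 5; limma adjusted p = 0.016). Ntn1, the founding netrin, had −0.051, −0.11, −0.12 and 0.053 in mice 1, 2, 3 and 5. Its mean of −0.057 ± 0.0797 did not pass (adjusted p = 0.461; 95% interval −0.205 to 0.0901). Ntng1, a lipid-anchored netrin-G, was the least variable member, at −0.029 ± 0.027 (adjusted p = 0.619).

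Unc5b, a netrin receptor of endothelial tip cells, had −0.115, 0.27, 0.3 and 0.16 in mice 1, 3, 4 and 5. Mouse 1 lay below 0 and the others above. The mean of 0.15 ± 0.19 did not pass (limma adjusted p = 0.184), and without mouse 1 the mean of 0.242 did (adjusted p = 0.0385). Unc5c averaged −0.076 ± 0.083 (SD, n = 5; adjusted p = 0.258).

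The sequences just upstream of Ntn4, Sema3e and Plxnd1 are shown because these were the members at least 2-fold from 0. Each runs from 250 bases before to 50 bases after the annotated transcript start in GRCm38.p6 (RefSeq), 5′ to 3′ on the gene's strand. Capitals mark the letters of 6 motifs searched on both strands, which were the TATA box (TATAAA), the CCAAT box (CCAAT), the GC box (GGGCGG), the AP-1 site (TGANTCA), an E-box (CACGTG) and a GATA site (AGATAA). Ntn4 lies at chr10:93640799-93641098 on the plus strand, Sema3e at chr5:14025026-14025325 on the plus strand and Plxnd1 at chr6:115994956-115995255 on the minus strand.
Ntn4: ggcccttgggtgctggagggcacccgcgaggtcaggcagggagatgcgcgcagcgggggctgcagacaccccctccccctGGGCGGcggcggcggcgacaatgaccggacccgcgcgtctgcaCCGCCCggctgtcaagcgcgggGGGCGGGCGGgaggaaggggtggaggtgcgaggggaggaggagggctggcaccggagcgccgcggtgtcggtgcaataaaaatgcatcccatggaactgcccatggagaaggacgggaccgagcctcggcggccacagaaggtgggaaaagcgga
Sema3e: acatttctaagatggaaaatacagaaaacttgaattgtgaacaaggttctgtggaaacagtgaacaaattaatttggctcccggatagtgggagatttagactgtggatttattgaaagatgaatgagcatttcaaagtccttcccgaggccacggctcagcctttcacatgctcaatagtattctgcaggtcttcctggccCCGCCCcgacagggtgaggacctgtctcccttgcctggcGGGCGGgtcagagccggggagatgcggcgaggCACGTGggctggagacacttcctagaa
Plxnd1: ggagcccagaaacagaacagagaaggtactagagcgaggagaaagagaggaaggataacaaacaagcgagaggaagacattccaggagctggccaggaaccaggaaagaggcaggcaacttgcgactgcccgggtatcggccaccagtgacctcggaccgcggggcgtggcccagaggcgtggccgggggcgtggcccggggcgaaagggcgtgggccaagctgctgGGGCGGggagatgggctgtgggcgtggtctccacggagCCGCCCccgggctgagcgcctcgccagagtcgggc

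All 3 windows held GC boxes. Ntn4 had 4 matches, of which the last 2 overlap by 2 letters, and Sema3e and Plxnd1 had 2 each. The GC box occurred in 56.1% of 9199 such windows of genes measured here, and in 34 of 44 windows of 35 measured guidance symbols. Sema3e also held an E-box, a motif found in 9.4% of the windows of measured genes. The windows were 72%, 50.7% and 67% G or C for Ntn4, Sema3e and Plxnd1, against a median of 52.7% over 32851 windows in the RefSeq table. That median is over all windows and not over those of measured genes, for which none was computed. GC boxes occurred in 35.7% of all windows, fewer than in those of measured genes. These matches describe letters and carry no statement on any factor.

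Slit2 lay above 0 and Slit1 did not pass. Slit2, a secreted ligand of Robo receptors that repels migrating cells, had 0.58, 0.61, 0.77, 0.46 and 0.35 in mice 1 to 5. Every mouse was above 0, and the mean of 0.55 ± 0.16 (SD, n = 5; a 1.47-fold difference) passed (limma adjusted p = 0.000836), although not in the pool-variance test (adjusted p = 0.124). Slit1, known mainly from the nervous system, had −0.23, 0.008, −0.125, −0.056 and −0.185, with a mean of −0.12 ± 0.095 (adjusted p = 0.114). Slit3 and Robo1 had values on 3 arrays each. Slit3 had −0.013, 0.033 and 0.15 in mice 1, 3 and 4, and Robo1 had −0.045, −0.109 and −0.111 in mice 2, 4 and 5.

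All 4 measured ephrins passed, each by a small ratio, with the lipid-anchored A-type ligands below 0 and the transmembrane B-type ligands above 0. Over all features 49.6% passed, and each type is represented by 2 genes. Efna5 had −0.24, −0.16, −0.24, −0.28 and −0.23 in mice 1 to 5, and Efna4 had −0.28, −0.16, −0.032, −0.14 and −0.16. Both lay below 0 in all mice, at means of −0.23 ± 0.044 (SD, n = 5; limma adjusted p = 0.00598) and −0.15 ± 0.089 (adjusted p = 0.0467). Efnb1 had 0.031, 0.18, 0.54, 0.26 and 0.17, and Efnb3 had 0.33, 0.19, 0.091, 0.11 and 0.12. Both lay above 0 in all mice, at means of 0.24 ± 0.19 (adjusted p = 0.0384) and 0.17 ± 0.098 (adjusted p = 0.0403).

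The calls of Efnb1, Efnb3 and Efna4 were close to the threshold, and each was lost when any of several single mice was left out. Efnb3 lost its call without any 1 of the 5 mice (adjusted p from 0.0618 to 0.102). Efnb1 lost it without mouse 2, 3, 4 or 5 (adjusted p from 0.0731 to 0.0902), and Efna4 without mouse 1, 2, 4 or 5 (adjusted p from 0.0919 to 0.114). Outside the test, Efna1, on 3 arrays, had 0.44, 0.28 and 0.18 in mice 1, 3 and 4, so that not every A-type ephrin with values lay below 0. Efna2 had 0.069 and −0.012 on 2 arrays and Efna3 0.28 on 1. Efnb2, the ephrin of arterial endothelium, had no value on any array.

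Eph receptors, the kinases that bind ephrins, lay on both sides of 0. Of 9 measured, 3 passed below 0, 2 passed above 0 and 4 did not pass, against 23.9% of all features below 0 and 25.8% above 0. Epha1, an Eph receptor of epithelia, had 0.77, 0.31, 0.41 and 0.45 in mice 1, 2, 3 and 5. Mouse 1 was highest, and the mean of 0.485 ± 0.2002 (SD, n = 4; a 1.4-fold difference) passed (limma adjusted p = 0.00577). Epha7 had 0.25, 0.53, 0.31, 0.12 and 0.39 in mice 1 to 5, all above 0, with a mean of 0.32 ± 0.15 (adjusted p = 0.00745).

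Below 0 lay Epha6, Epha3 and Epha8, all receptors of A-type ephrins, as are Epha1 and Epha7 above 0. Epha6 had −0.44, −0.29, −0.12, −0.302 and −0.27 in mice 1 to 5, for a mean of −0.28 ± 0.11 (SD, n = 5; limma adjusted p = 0.00651). Epha3 had −0.15, −0.135, −0.21, −0.32 and −0.33, for a mean of −0.23 ± 0.092 (adjusted p = 0.012). Epha8 had −0.19, −0.106, −0.115, −0.23 and −0.18, for a mean of −0.16 ± 0.052 (adjusted p = 0.0253). The Epha8 call was lost without mouse 1, 4 or 5 (adjusted p from 0.0555 to 0.0754). None of the mice lay above 0 for these 3 genes, and the farthest mean was 1.22-fold from 0. Ephb4, the venous receptor of ephrin B2, averaged 0.13 ± 0.12 (adjusted p = 0.111), Ephb3 −0.107 ± 0.14 (adjusted p = 0.208) and the kinase-inactive Ephb6 −0.052 ± 0.064 (n = 4; adjusted p = 0.486). Epha2 had −0.072 and −0.11 in mice 3 and 4 alone.

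Epha4, Ntng2 and Plxna1 had 2 features each that lay on different sides of 0. For Epha4, a receptor that binds both classes of ephrin, feature 1687 gave −0.23, −0.12, −0.38, −0.499 and −0.39 in mice 1 to 5, and feature 15245 gave 0.45, 0.57, 0.55, 0.37 and 0.018. The features did not overlap, and both passed when fitted among single features, at means of −0.32 and 0.39 (limma adjusted p = 0.00694 and 0.00924). Their average, 0.035 ± 0.16 (SD, n = 5; adjusted p = 0.702), describes neither.

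Ntng2, a lipid-anchored netrin-G, showed the same split. Feature 8897 lay above 0 in all mice (mean 0.17 ± 0.11; SD, n = 5; limma adjusted p = 0.0453) and feature 11040 below 0 in all mice (mean −0.27 ± 0.16; adjusted p = 0.0175). For Plxna1, a plexin that pairs with neuropilins, feature 10232 lay above 0 in all mice (mean 0.42 ± 0.29; adjusted p = 0.0161), and feature 1907 ranged from −0.48 in mouse 2 to 0.16 in mouse 5 (mean −0.066 ± 0.24; adjusted p = 0.585). Which feature of a pair reports the gene named by the annotation was not tested.

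**Figure D3:**
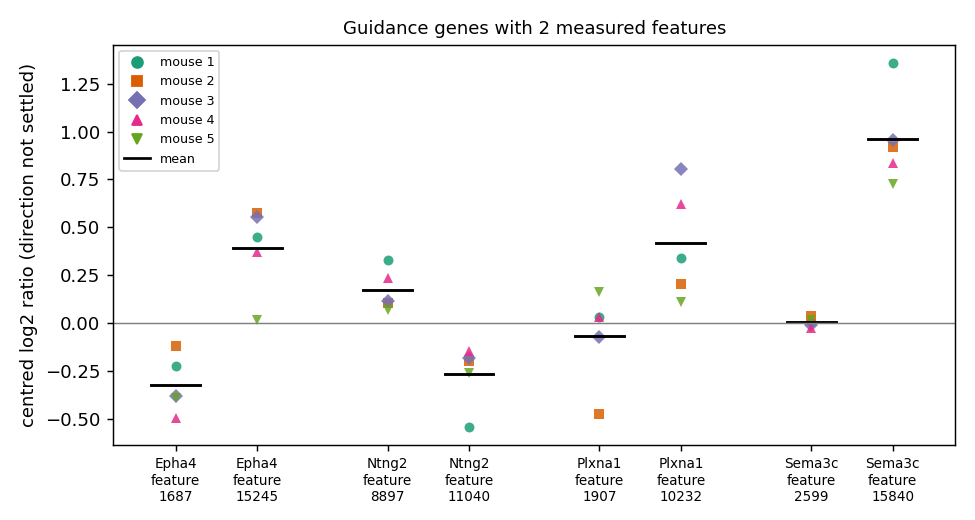
Centred log2 ratio (vertical axis) in each of the 5 mice for both measured features of Epha4, Ntng2, Plxna1 and Sema3c, with a black bar at each mean. The 2 features of Epha4 have means of −0.32 and 0.39, and those of Sema3c 0.0046 and 0.96.

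By role, 10 secreted ligands of these families were measured, of which 6 passed above 0 and 1 below 0, at a median log2 ratio of 0.37. The 6 include Sema3c, whose average also enters that median and rests on 1 of 2 unlike features (means 0.96 and 0.0046). Of 14 membrane-bound ligands, 3 passed above 0 and 4 below 0, at a median of −0.038. Of 17 receptors, 3 passed above 0 and 3 below 0, at a median of −0.0068. The same 25.8% and 23.9% of all features, with a median of −0.0066, are the background for each. The difference between roles was not tested.

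Of the 59 symbols, 17 had too few values to be tested. Efnb2, Epha5, Plxnb3, Sema3d, Sema4b, Sema5b and Unc5cl, a symbol that is no netrin receptor, had values on 0 arrays, and Efna3, Nrp1 and Sema4f on 1 array. Efna2, Epha2 and Robo4, the Robo of endothelium, had values on 2 arrays, and Efna1, Robo1, Sema6d and Slit3 on 3. Sema6d, a transmembrane semaphorin that binds plexin A1, was the farthest from 0 of these, with 0.598, 0.62 and 0.84 in mice 1 to 3. In a fit that admitted features read on 3 arrays, Sema6d averaged 0.69 ± 0.13 (SD, n = 3; limma adjusted p = 0.00233) and Efna1 0.2997 ± 0.13 (adjusted p = 0.0334). Signal over background is unknown for every feature, so a missing value does not show that a gene was silent.

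Partners of the guidance pathways were described by list, against the same 25.8% of all features above 0 and 23.9% below 0. The cytoplasmic effectors of Eph receptors and ephrins had 8 of 15 above 0 and 3 below 0. Ptpn13, a phosphatase that acts on B-type ephrins, averaged 1.38 ± 0.2002 (SD, n = 5; limma adjusted p = 4.22e-05), the Src family kinase Yes1 1.12 ± 0.24 (adjusted p = 0.000139) and the phosphatase Acp1 0.96 ± 0.45 (n = 4; adjusted p = 0.00493). Below 0 were the kinase Src at −0.404 ± 0.052, the exchange factor Ngef (ephexin) at −0.24 ± 0.055 and the Rac activator Vav2 at −0.23 ± 0.13. Ptpn13 and Yes1 also passed the pool-variance test (adjusted p = 0.0162 and 0.0393).

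Of 10 effectors of Slits, Robos and netrins, 7 passed above 0 and 1 below 0. The ubiquitin ligase Siah2 averaged 1.0990 ± 0.401 (SD, n = 5; limma adjusted p = 0.000934), the actin regulator Enah 0.86 ± 0.28 (adjusted p = 0.000718) and the lipid transfer protein Pitpna 0.47 ± 0.17 (adjusted p = 0.00197), against the Robo-associated GTPase activator Srgap3 at −0.49 ± 0.19 (adjusted p = 0.00218). Effectors of semaphorins and plexins had 4 of 17 above 0 and 6 below 0. Dpysl3, a collapsin response mediator, averaged −0.85 ± 0.53, the actin oxidase Mical1 −0.67 ± 0.44 and Tyrobp, an adaptor of immune cells that also serves plexin A1, −0.65 ± 0.4005 (adjusted p = 0.0079, 0.0103 and 0.00871). Above 0 were the small GTPases Mras at 0.26 and Rnd3 at 0.23 and the exchange factor Farp2 at 0.23.

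Of 14 co-receptors and other ligands, 3 passed on each side of 0. The VEGF receptors lay apart, with Flt1 at 0.801 ± 0.44 and Flt4, the receptor of lymphatic endothelium, at −0.54 ± 0.13 (SD, n = 5; limma adjusted p = 0.00497 and 0.000633). Cd72, the B cell receptor of Sema4d, averaged −0.83 ± 0.44 (adjusted p = 0.00421). The shedding protease Adam10 averaged −0.17 ± 0.072 (adjusted p = 0.026), the endothelial phosphatase Ptprb 0.39 ± 0.13 (adjusted p = 0.00244) and the neogenin ligand Rgmb 0.26 ± 0.11 (adjusted p = 0.00887).

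**Figure D4:**
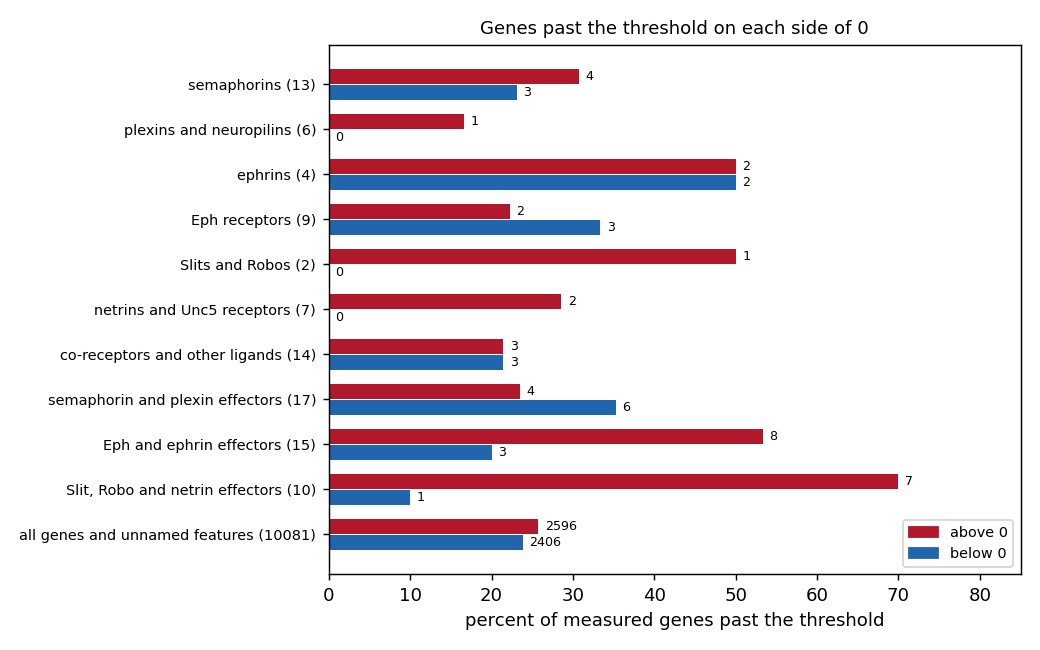
Percent of the measured genes of each family and of 4 partner lists past the threshold (horizontal axis), above 0 in red and below 0 in blue, with the count at each bar and the number measured in brackets. All features stand at 25.8% above 0 and 23.9% below 0, and 7 of 10 effectors of Slits, Robos and netrins stand above 0.

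Markers of several lung cell types moved on the same arrays. Of 10 measured endothelial markers 8 passed, all above 0, with a median log2 ratio of 0.64. Their list medians in mice 1 to 4 were 0.78, 0.63, 0.47 and 0.45. The 0.86 of mouse 5 leaves out Eng and Esam, which had no value there, and is not compared with the others. Of 11 alveolar epithelial markers 6 passed, all above 0, with a median over the list of 1.05. Cav1 and Slc34a2 of that list had no value in mouse 2, so its medians by mouse are not compared. These counts stand beside 25.8% of all features above 0 and 23.9% below 0. Macrophage markers had 6 of 8 below 0 and 1 above 0, with a median of −0.98. Against the same shares, airway epithelial markers had 4 of 8 above 0 and 2 below 0. Fibroblast and smooth muscle markers each had 1 of 4 above 0 and 2 below 0, and nerve markers 1 of 6 above 0 and 2 below 0. T cell markers had 0 of 4 past the threshold, B cell markers 2 of 3 below 0 and mesothelial markers 1 of 3 above 0. The 1 red cell marker measured passed above 0. The part of any cell type in the guidance genes was not tested, and ratios hold no signal levels against which the tissue itself could be checked.

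Skeletal muscle markers separated the arrays. Their list medians were −4.42, −3.26, −0.23, −0.48 and −3.48 in mice 1 to 5, with 7 of 9 genes past the threshold below 0, against 23.9% of all features. Mouse 4, without a value for Tnni2, still ranged from −4.03 for Myh8 to 0.42 for Ckm. The part of muscle in the guidance genes was not tested. Mice 3 and 4, where these medians were closest to 0, were taken alone after seeing the data. There, with n = 2 mice, Ntn4, Sema3e and Plxnd1 averaged 2.02, 1.54 and 1.41 and passed (limma adjusted p = 0.00656, 0.0146 and 0.0119). None of these genes passed the pool-variance test there (adjusted p = 0.058, 0.112 and 0.0948). Both mice also entered the calls over all mice, so passing there is no separate support for those calls. Nor does it show that they are free of muscle. Of the 20 guidance symbols called over all mice that could be fitted there, 7 kept their side and call, the others being Sema3b, Sema3c, Sema3f and Slit2. Across the 10 pairs of arrays, the log2 ratios of the 42 symbols had Pearson correlations between 0.847 and 0.948 (median 0.888), against 0.732 to 0.857 (median 0.813) over all 10081 features. All pairs share the pool, and no value free of it was computed. The 42 symbols include Ntn4, Sema3e and Plxnd1, far from the rest, and no correlation without them was computed.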

How the data were processed

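The authors deposited 1 log ratio per feature and array for 5 two-colour arrays, per the labels 1 bleomycin-treated mouse each against a common control pool. The deposited values were taken as log2. The log base, direction, dyes, scanner, image processing and normalization are not stated in these sources, and the deposited array medians lay between 0.011 and 0.026. Arrays held values for 11350 to 12083 of 17280 features. Scanner intensities were not used here, so the number of arrays limits the precision.

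Each array was centred on the median of all its values, features with values on at least 4 arrays were kept (10702), and features of 1 symbol were averaged. Symbols came from the platform annotation and were updated by gene identifier for 14445 of 14723 annotated features. All 65 guidance features matched RefSeq. An intercept-only limma fit (limma 3.58.1 in R 4.3.3, empirical Bayes, two-sided, Benjamini-Hochberg over 10081) gave the tests. It was tried on simulated arrays that had no shared pool and no dye bias, so that trial cannot show how the fit behaves under either. The pool is 1 control sample, and gene-specific dye bias does not cancel without a dye swap. In the pool-variance test, the standard error was that of a mean of n mice against 1 sample of the same spread.

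Members and lists were chosen with earlier results of these data known. Values per mouse were given for members that passed the pool-variance test, for the 3 farthest from 0 on each side of each family among those past the threshold, and for members with features on different sides of 0. Values per mouse of members that missed the threshold (among them Sema3a, Sema4g, Plxnb2, Ntn1, Unc5b and Slit1) lie outside that rule and were chosen after they were seen. Partner lists were described by counts and by the 3 farthest members on each side past the threshold. A further partner list is not reported here. Alternatives were centring, scaling, the filter on missing values, 1 feature per symbol, a plain one-sample test, a minimum difference of 1.2-fold, robust hyperparameters, and leaving out each mouse.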

Additional observations from a re-analysis of the deposited data

How the results depend on the processing

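Of 21 guidance symbols past the threshold, all 21 kept their side and call with arrays scaled to the same spread, with features on at least 3 arrays, with robust hyperparameters and, in an alternative chosen after seeing the data, when arrays were centred on the features kept. All 20 still measured did so with features on all 5 arrays, and 20 of 21 without centring, where Efna4 was lost. With 1 feature per symbol Sema3c was lost (0.0046), and Epha4, Ntng2 and Plxna1 changed side (−0.32, 0.17 and −0.066). Epha4 and Ntng2 passed on their new side there (limma adjusted p = 0.0069 and 0.0454). With a plain one-sample test Efnb1, Sema3f and Sema6b were lost and Sema4d was gained (adjusted p = 0.029). Leaving out 1 mouse also gained Unc5b, Plxna1 and Sema4a.

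With differences tested against 1.2-fold, 1847 features passed in place of 5002, with 0 guidance symbols below 0 (0 at an unadjusted p under 0.05 by limma) and 6 above 0 (Sema3e, Sema3b, Sema3c, Slit2, Ntn4 and Plxnd1). In the pool-variance test, where the pool counted as 1 control mouse, 513 features passed, with 0 guidance symbols below 0 and 2 above 0. That pair fell to 1, Sema3e, against 1.2-fold, and to 0 when gene variances were not moderated (8 at an unadjusted p under 0.05). Without 1 mouse in turn, the pool-variance test gave 1 to 3 symbols. Ntn4 was lost without mouse 3, 4 or 5 (adjusted p = 0.0654, 0.0548 and 0.0676), and Plxnd1 was gained without mouse 2.

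Without 1 mouse in turn, 5 to 7 guidance symbols passed below 0, from 10 to 12 above 0, and 4106 to 4616 features in all. The fewest below 0 came without mouse 4. The median log2 ratio of the guidance symbols ran from −0.0015 to 0.064. Members near 0 changed side without passing. These were Plxna2 without centring (0.0088), without mouse 1 (0.0135) and without mouse 5 (0.022), Epha4 without mouse 2 (−0.013), Plxna3 without mouse 3 (−0.016) or mouse 4 (−0.028), and Plxnc1 without mouse 3 (0.029). Over the fits that left out 1 mouse, Epha4 ran from −0.013 to 0.0904, Plxna2 from −0.0395 to 0.022, Plxna3 from −0.028 to 0.0557 and Plxnc1 from −0.088 to 0.029.

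In mice 3 and 4 alone, an alternative chosen after seeing the data, 2307 features passed, with 1 guidance symbol below 0 and 6 above 0. There, 0 passed the pool-variance test (6 at an unadjusted p under 0.05 by limma). Ntng2 (0.005) and Plxna2 (0.0835) changed side there. The cause of these changes was not tested. No paired analysis was possible because the 5 mice form 1 group with a common pool.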
